A study of Saccharomyces cerevisiae with 6 samples.

Results

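The mRNA levels of 50 genes of the budding yeast DNA replication machinery were followed on 6 Affymetrix expression arrays, 3 from cells carrying histone H3 K4,79R and 3 from wild-type cells. The members were chosen by name, from the subunits of the origin recognition complex, the MCM helicase and its loading and firing factors, GINS, the replicative polymerases, the sliding clamp and its loader, the single-strand binding protein RPA and the factors that join Okazaki fragments or protect the fork. They make up 50 of the 5656 genes that had a probe set of their own. Probe sets numbered 58, 1 for each of 49 genes and 9 for POL2.

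In the H3 K4,79R strain, lysines 4 and 79 of histone H3 are replaced by arginine. These residues are methylated in wild-type chromatin by Set1 and Dot1, and arginine at these places is not a substrate for either enzyme. Both strains were grown to mid-log phase in YPD, a rich glucose medium, and harvested at an optical density (OD600) of 0.5 to 0.7. The strain background, the state of the H3 gene copies and whether the 3 samples of a group were separate cultures are not given in the sources used here. If the samples are not separate cultures, the p-values below rest on technical spread alone. The 3 probe sets for H3 are all listed under both HHT1 and HHT2 and could not check the genotype.

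Replication starts when the origin recognition complex (ORC) marks origins and Cdc6 and Cdt1 load MCM helicases there in G1. The Cdc7-Dbf4 kinase and S-phase cyclin kinase then bring in Cdc45 and GINS to make the active helicase, and polymerase alpha-primase, delta and epsilon copy the strands with the PCNA clamp. Many of these genes are transcribed in a burst at the passage from G1 to S, driven by the MBF factor (Mbp1 with Swi6), so their level in a growing culture also reflects the cell cycle. In total RNA from a culture, fewer cells of a stage and less RNA per cell cannot be told apart.

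None of the 49 tested replication genes passed the test in either direction between K4,79R and wild type. Values are MAS5 signals (array intensity), differences are log2(signal + 3.605), K4,79R minus wild type, and a gene was called at a Benjamini-Hochberg adjusted p under 0.05 in limma over all 5385 tested genes. In that fit 4.23% of all genes were called, 2.79% higher and 1.45% lower in K4,79R (150 and 78 genes, or 156 and 202 with the arrays set to a common median). At an unadjusted p under 0.05 there were 4 replication genes (ORC4, POL3, MCM4 and RFA2), 8.16% of the tested members, against 22.2% of all tested genes. Of these, 3 were higher in K4,79R, where 13.7% of all genes passed, and ORC4 was lower, where 8.41% did. The median log2 difference of the 49 genes was 0.05, against 0.04 over all tested genes. Positive differences numbered 30 (61.2%) and negative ones 19, against 54.9% positive over all tested genes. On this scale and with all arrays no member differed by 1.5-fold or more, a size reached by 8.69% of all tested genes. ORC5, the largest at 0.55, reached that size with an offset of 1 signal unit (log2 0.60). It also did so without wild-type array 1 (0.71) and without wild-type array 2 (0.66). Without K4,79R array 1, ORC5, PSF3 and MCM6 reached it (0.82, 0.73 and 0.61).

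The intervals bound what these arrays could show. The 95% interval of the log2 difference lay within 2-fold in both directions for 47 of the 49 genes (95.9%, against 88.2% of all tested genes). The exceptions were ORC5, whose interval ran from -0.14 to 1.24, and PSF3, from -0.18 to 1.01. This count holds for the offset used, which understates differences of dim genes, and does not bound the fold in signal itself. ORC3 reached -0.99 and MRC1 0.90. With an offset of 1 signal unit ORC3 had -0.27 ± 0.36 (SE), against -0.24 ± 0.33 here. MRC1 had 0.35 ± 0.32, against 0.30 ± 0.26. Whether their intervals then stay within 2-fold was not tested. The number of arrays limits this precision, and a difference that missed the threshold is not shown to be absent. POL32, the third subunit of polymerase delta, was the member left out as too dim: it had signals of 4.15, 8.73 and 9.40 on K4,79R arrays 1, 2 and 3, against 2.80, 4.70 and 5.30 on wild-type arrays 1, 2 and 3.

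**Figure D1:**
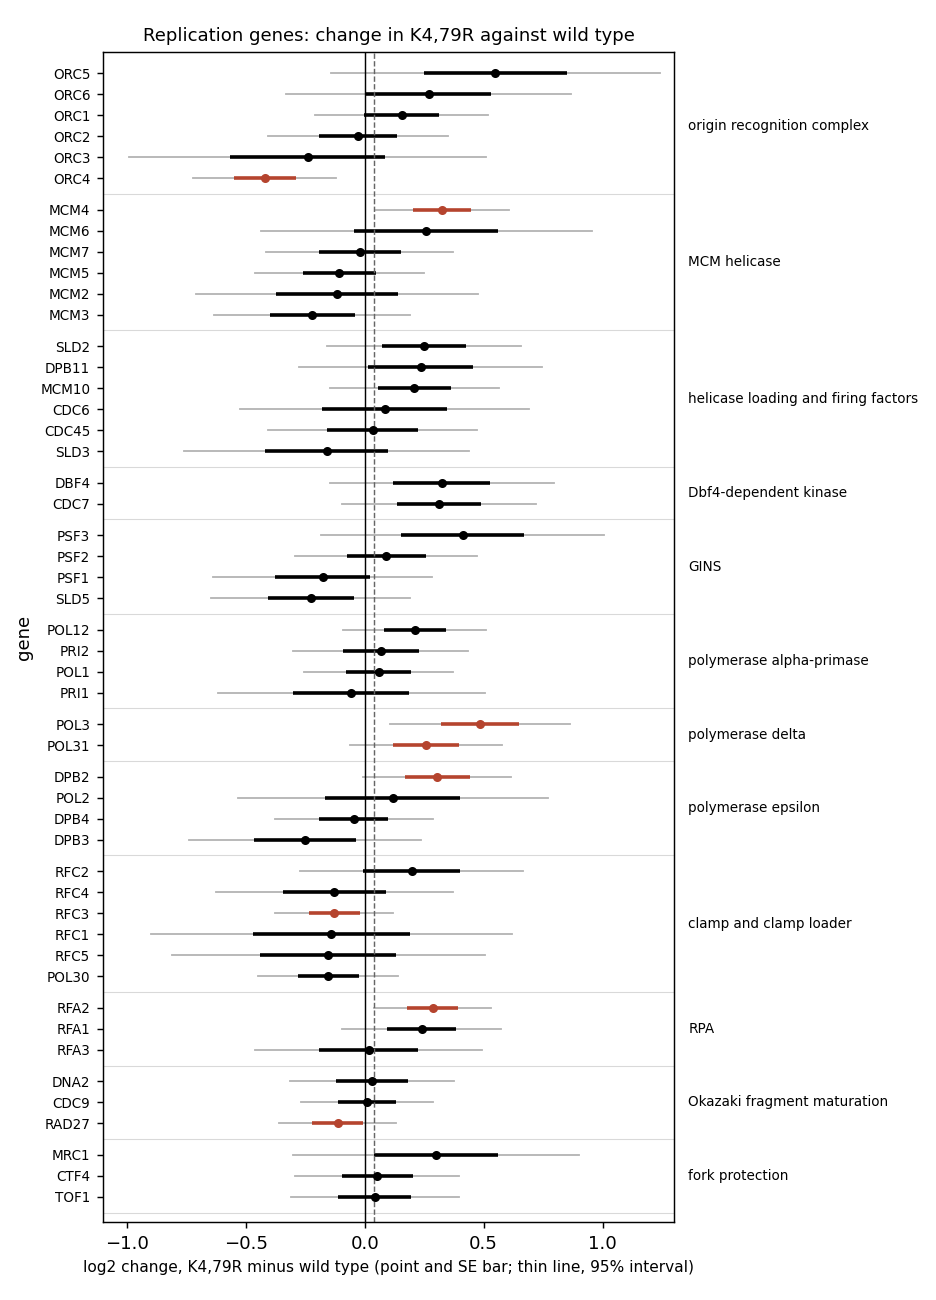
Log2 difference of each of the 49 tested replication genes, K4,79R minus wild type, by role. Points carry SE bars and thin lines the 95% interval; red marks the 8 genes whose arrays did not overlap between groups, and the dashed line is the median of all tested genes at 0.04. ORC4 at -0.42 and ORC5 at 0.55 are the ends of the range.

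The 3 K4,79R arrays were not alike. Array 1 read lower than the other K4,79R arrays for most replication genes: its log2 signal minus the mean of K4,79R arrays 2 and 3 had a median of -0.40 over the 49 genes and was negative for 39 of them. Over all tested genes the same median was -0.23. The gaps are those of the deposited values, in which K4,79R arrays 1, 2 and 3 carry constants of 0.922, 1.09 and 1.11. All values of an array are whole multiples of 0.1 of its constant. The part of the constants in the gap was not tested. The gap was below -0.5 for 18 replication genes (36.7%) and for 26.5% of all tested genes, and no replication gene had such a gap on K4,79R arrays 2 or 3. Wild-type array 3 had such gaps for 6 replication genes (12.2%), CDC6, ORC5, ORC6, POL2, PRI1 and SLD3, against 7.54% of all tested genes, and wild-type arrays 1 and 2 had none. Within-group SDs of the log2 signal had a median of 0.26 over the members in K4,79R and 0.14 in wild type, against 0.21 and 0.13 over all tested genes.

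Some other measures of array 1 also stood apart from K4,79R arrays 2 and 3. Its 3′ to 5′ signal ratio for ACT1 was 1.00, against 1.55 and 1.498 on K4,79R arrays 2 and 3 and 1.58 to 1.64 on the wild-type arrays. For SPT15 that ratio was 5.71 on K4,79R array 1, against 2.79 and 3.35 on K4,79R arrays 2 and 3 and 5.02 to 6.15 on the wild-type arrays, so there arrays 2 and 3 differ from the rest. Across probe sets, which are not independent, array 1 correlated with arrays 2 and 3 at 0.9745 and 0.9791 on the log2 scale, and those with each other at 0.9883. The part of these differences in the results was not tested. Results below use all arrays, and for each gene named whose call differs without K4,79R array 1 the value without it is given as well.

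**Figure D2:**
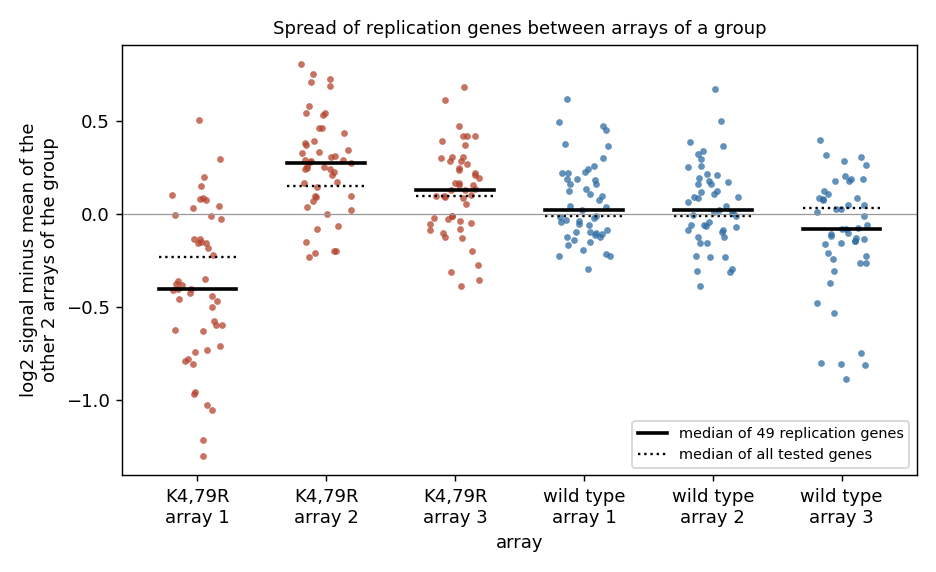
Each point is a tested replication gene, placed at its log2 signal on an array minus the mean of the other 2 arrays of the same group; solid lines are the median of the 49 genes and dotted lines that of all tested genes. K4,79R array 1 lies lowest, with a median of -0.40, and K4,79R array 2 highest, at 0.27; the wild-type arrays lie between -0.08 and 0.02.

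Without K4,79R array 1, 7 of the 49 replication genes were called (14.3%), against 20.9% of all 5385 genes. Of these, 6 were higher in K4,79R, where 16.0% of all genes were called higher: PSF3, CDC7, DBF4, MCM6, RFA1 and RFA2. ORC4 was lower, where 4.83% of all genes were called lower. The median log2 difference of the members was then 0.19, against 0.11 over all tested genes. This fit used the values as deposited and was not repeated with another scaling. In those values the 2%-trimmed means were 134 and 136 on K4,79R arrays 2 and 3, against 123 on each wild-type array. Without this array 11 members turned sign, with RFC1, RFC4, RFC5, MCM2, MCM5, ORC2, ORC3, PRI1 and PSF1 positive instead of negative and CDC9 and PRI2 negative instead of positive.

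Origin recognition genes held both ends of the range. ORC4, an ATPase-family subunit of the complex, had signals of 39.5, 38.3 and 35.9 on the K4,79R arrays, against 51.0, 50.7 and 54.0 on the wild-type arrays. All 3 K4,79R values lay below all wild-type values, as they did for 12.2% of tested genes, and neither group spread far. The means were 37.9 ± 1.79 and 51.9 ± 1.82 (SD, n = 3 each), a log2 difference of -0.42 ± 0.13 (SE) with a limma adjusted p of 0.112, the lowest among the members. Without K4,79R array 1 the difference was -0.45 and the adjusted p 0.0332.

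ORC5, the other end, had 21.6, 43.4 and 37.8 on the K4,79R arrays, against 27.5, 25.6 and 13.6 on the wild-type arrays. The groups overlapped through K4,79R array 1. Its log2 difference of 0.55 ± 0.30 gave an adjusted p of 0.326, and 0.82 with an adjusted p of 0.0549 without that array. ORC3 showed the second widest gap of array 1 of any member, at 15.2 on K4,79R array 1, 38.6 on array 2 and 41.7 on array 3, against 31.5, 43.0 and 32.6 in wild type. Its difference was -0.24 with all arrays and 0.17 without array 1, neither called. ORC1, the largest subunit and an ATPase, averaged 51.4 ± 7.60 in K4,79R and 45.6 ± 4.61 in wild type. ORC2 averaged 50.6 ± 5.57 and 52.0 ± 8.20 in the same order, and ORC6, the subunit outside the ring, was dim at 8.13 ± 3.54 in K4,79R and 6.10 ± 2.65 in wild type. Of the 6 genes, 3 had positive and 3 negative differences, with none called.

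**Figure D3:**
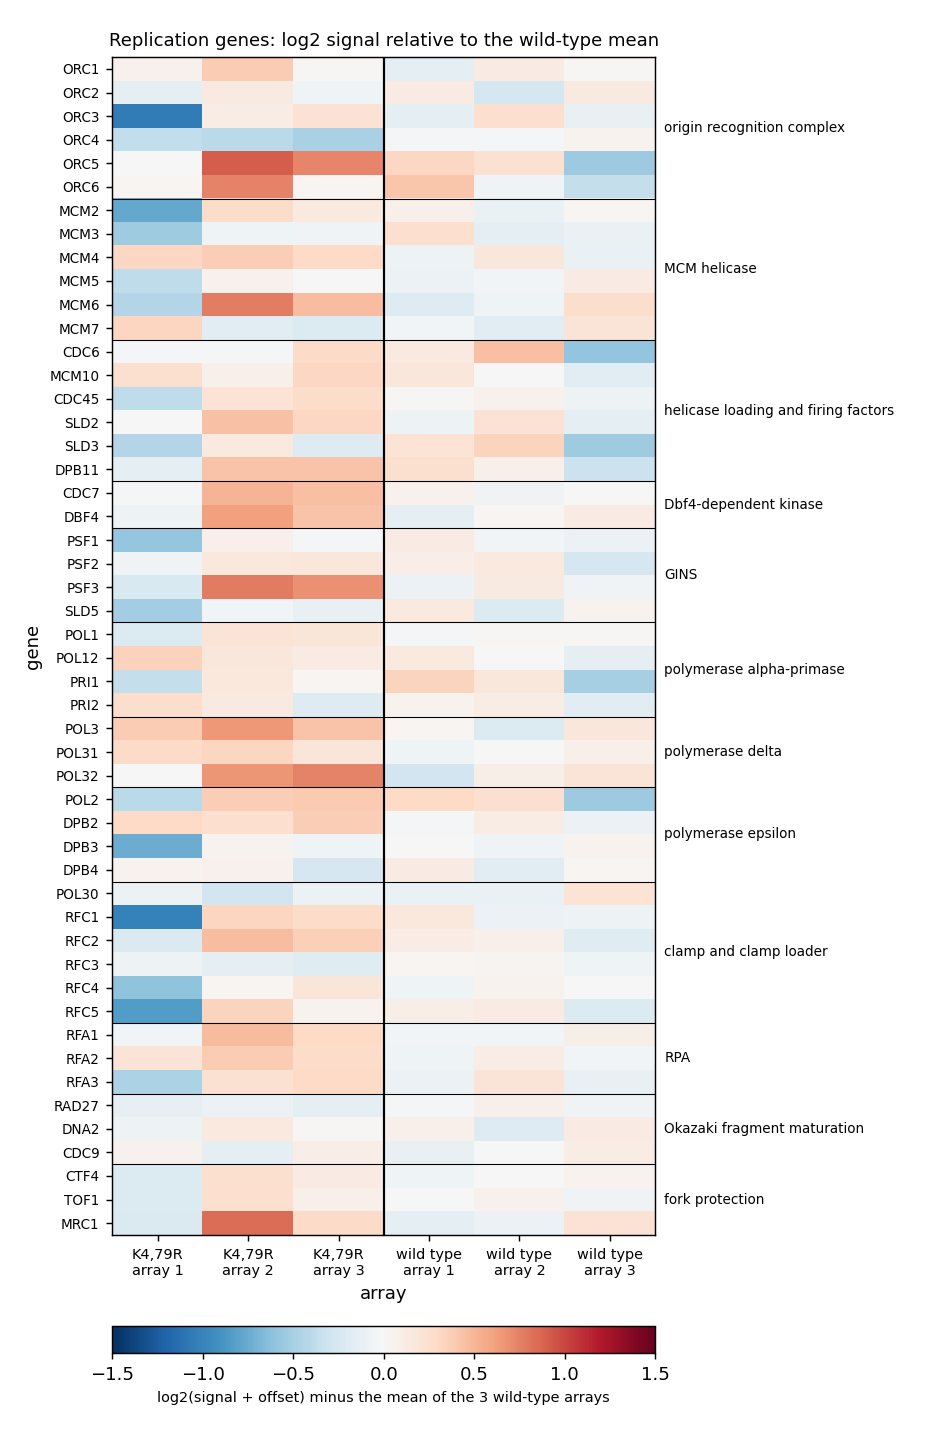
All 50 replication genes in rows, by role, and the 6 arrays in columns, K4,79R left of wild type; colour is log2(signal + 3.605) minus the mean of the 3 wild-type arrays. K4,79R array 1 is blue for RFC1, ORC3, RFC5, MCM2 and DPB3, where K4,79R arrays 2 and 3 are near or above 0; ORC4 is blue on all 3 K4,79R arrays.

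The 6 MCM genes encode a hexameric ring, loaded around DNA as a double hexamer, that becomes the core of the helicase. MCM4, the subunit with a long regulatory tail phosphorylated by Cdc7-Dbf4, had signals of 116, 122 and 116 on the K4,79R arrays, against 88.7, 105 and 87.1 on the wild-type arrays. The groups did not overlap, as for 16.6% of all tested genes in this direction. With 118 ± 3.51 in K4,79R and 93.7 ± 10.02 in wild type the log2 difference was 0.33 ± 0.12, which missed the threshold (limma adjusted p = 0.169). MCM3 had a difference of -0.22 ± 0.18, with 64.8, 90.9 and 91.7 in K4,79R against 114, 85.7 and 89.0 in wild type.

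For MCM6 and MCM2 the result turned on array 1. MCM6 read 15.9, 41.3 and 32.8 on the K4,79R arrays, against 19.5, 21.7 and 28.2 in wild type, so array 1 was the lowest of all 6 and arrays 2 and 3 the highest. Its difference was 0.26 ± 0.30 with all arrays (limma adjusted p = 0.653) and 0.61 without array 1, where it was called at an adjusted p of 0.0470. MCM2 read 45.7 on K4,79R array 1, then 97.5 and 88.9, against 84.5, 74.3 and 82.1 in wild type, and its difference of -0.12 became 0.21 without array 1, uncalled both times. MCM7 went the other way, with K4,79R array 1 the brightest of the 6 arrays at 169, arrays 2 and 3 at 119 and 117, and wild type at 132, 121 and 155. MCM5 averaged 78.2 ± 12.8 in K4,79R and 83.9 ± 6.75 in wild type. None of the 6 was called with all arrays, and their median difference was -0.06.

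Among the loading and firing factors none was called with or without K4,79R array 1. CDC6, the ATPase that helps ORC load MCM rings, averaged 35.1 ± 4.93 in K4,79R and 34.4 ± 12.9 in wild type, where array 3 at 20.5 lay well under arrays 1 and 2 at 36.6 and 46.0. SLD2 and DPB11, partners brought together by cyclin kinase phosphorylation to recruit GINS, had differences of 0.25 ± 0.18 and 0.24 ± 0.22. SLD2 was dim, with 10.6, 15.7 and 14.05 in K4,79R against 9.90, 12.9 and 9.30 in wild type. SLD3, which recruits Cdc45, was the negative one at -0.16 ± 0.26, and CDC45 itself averaged 66.1 ± 16.2 in K4,79R and 63.2 ± 3.09 in wild type. MCM10, needed to activate the loaded helicase, stood near the lower limit of the tested range with 9.35 ± 1.07 and 7.63 ± 1.35 in the same order.

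Both subunits of the Cdc7-Dbf4 kinase, which triggers origin firing by phosphorylating MCM proteins, showed one pattern. CDC7, the catalytic subunit, had signals of 33.2, 49.5 and 47.6 on the K4,79R arrays, against 35.5, 32.3 and 33.6 on the wild-type arrays. DBF4, the activating subunit whose protein level cycles, had 18.4, 32.0 and 27.8 in K4,79R, against 17.3, 20.1 and 21.7 in wild type. For both genes K4,79R arrays 2 and 3 lay above every wild-type array, as for 38.1% of all tested genes. K4,79R array 1 lay among the wild-type values. With all arrays the log2 differences were 0.31 ± 0.18 and 0.32 ± 0.21, with limma adjusted p of 0.342 and 0.395. Without array 1 they were 0.48 and 0.52 and both were called, at adjusted p of 0.0292 and 0.0416. In that fit 16.0% of all tested genes were called higher.

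GINS, a 4-subunit ring that binds Cdc45 and MCM, was not called with all arrays and was split in sign. PSF3 had signals of 48.97, 102 and 95.8 on the K4,79R arrays, against 54.5, 64.2 and 55.6 on the wild-type arrays. K4,79R array 1 was the lowest of all 6 and the other K4,79R arrays were far above wild type. The difference was 0.41 ± 0.26 with all arrays (limma adjusted p = 0.390) and 0.73 without array 1, with the lowest adjusted p of any member there, 0.00767. SLD5 had 29.5, 42.4 and 40.3 in K4,79R against 49.1, 37.5 and 45.8 in wild type, a difference of -0.23 ± 0.18. PSF1 had 15.8, 26.8 and 24.7 in K4,79R against 27.9, 24.5 and 23.6 in wild type, a difference of -0.18 with all arrays and 0.02 without array 1. PSF2 averaged 34.3 ± 3.29 in K4,79R and 32.2 ± 5.11 in wild type. Whether the subunits differ from each other was not tested.

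**Figure D4:**
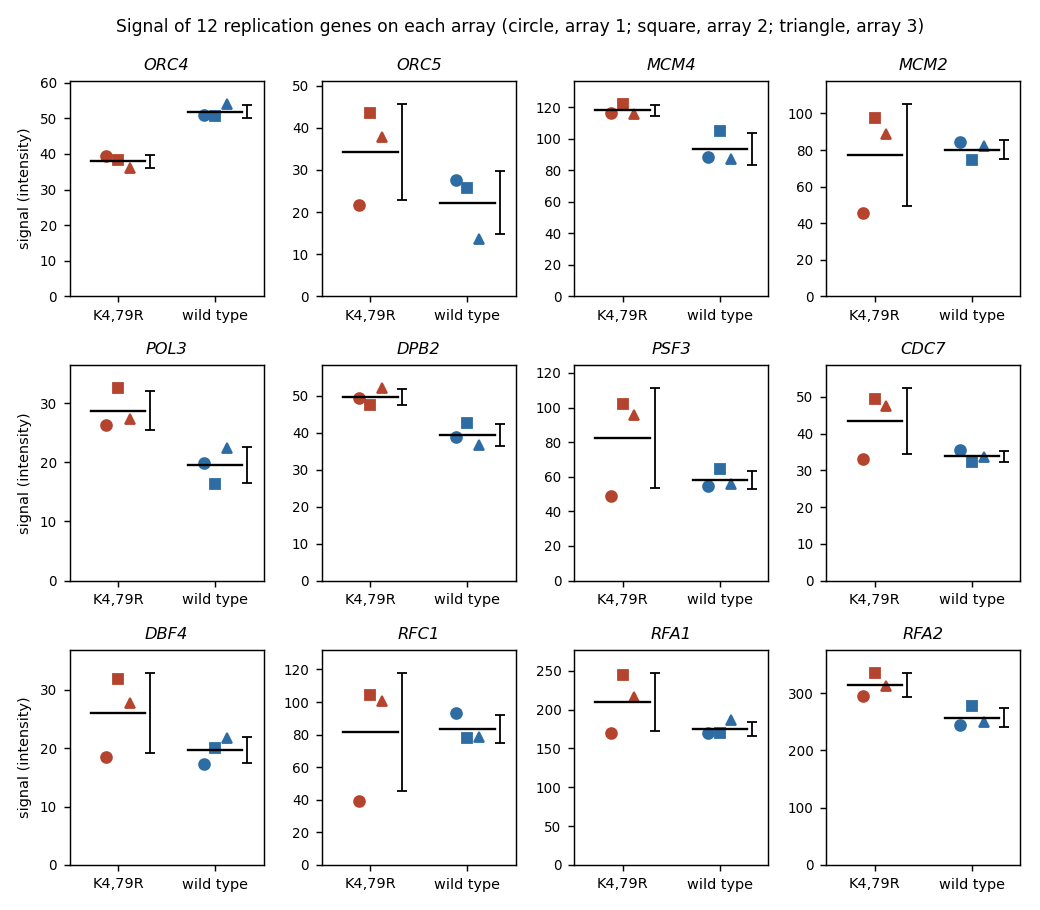
Signal on each array for 12 replication genes, K4,79R left and wild type right, with the mean as a line and the SD beside it (n = 3 each); marker shapes give the array number. ORC4 lies lower and MCM4, POL3, DPB2 and RFA2 higher in K4,79R without overlap, while for PSF3, CDC7, DBF4, MCM2, RFC1 and RFA1 the circle of K4,79R array 1 lies apart from K4,79R arrays 2 and 3.

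Polymerase alpha-primase makes the RNA-DNA primers. POL1, the catalytic subunit, averaged 168 ± 26.2 in K4,79R and 159 ± 2.99 in wild type, and PRI2, the large primase subunit, 77.0 ± 12.7 and 72.8 ± 7.44. PRI1, the catalytic primase subunit, averaged 48.4 ± 9.36 in K4,79R and 51.4 ± 15.3 in wild type. POL12, the regulatory B subunit, had 125, 110 and 107 in K4,79R, against 109, 97.9 and 87.7 in wild type, a difference of 0.21 ± 0.13. The 4 differences lay between -0.06 and 0.21 and none was called.

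Polymerase delta, which synthesises most of the lagging strand, had both tested subunits higher in every K4,79R array than in any wild-type array. Such a separation in this direction held for 16.6% of all tested genes. POL3, the catalytic subunit, had signals of 26.4, 32.5 and 27.3 in K4,79R, against 19.9, 16.4 and 22.4 in wild type. Its log2 difference of 0.48 ± 0.16 was the second largest positive one among the members and missed the threshold (limma adjusted p = 0.140, and 0.0506 without K4,79R array 1). POL31, the B subunit, had 30.6, 31.5 and 28.2 in K4,79R, against 23.3, 24.4 and 26.0 in wild type, a difference of 0.26 ± 0.14 with an adjusted p of 0.315. The third subunit, POL32, had a higher mean in K4,79R on dim signals that were not tested, with K4,79R array 1 among the wild-type values.

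Polymerase epsilon, which copies the leading strand, was mixed. DPB2, the essential B subunit that ties the enzyme to GINS, had 49.2, 47.6 and 52.0 in K4,79R, against 38.9, 42.7 and 36.8 in wild type. The groups did not overlap, and the difference was 0.31 ± 0.14 (limma adjusted p = 0.232). DPB3, a small histone-fold subunit, had 40.5, 73.3 and 67.2 in K4,79R, against 69.8, 68.0 and 73.4 in wild type. Its difference of -0.25 ± 0.21 was close to 0 without K4,79R array 1. DPB4, the other histone-fold subunit, averaged 87.3 ± 10.98 in K4,79R and 90.1 ± 9.07 in wild type.

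POL2, the catalytic subunit, had 120, 208 and 213 in K4,79R, against 199, 191 and 109 in wild type, on the probe set used. Wild-type array 3 and K4,79R array 1 were both low, and the difference was 0.12 ± 0.28. Of its 8 further probe sets, 7 carry a name suffix grouped here as marking shared probes and 4 were bright enough to be fitted. Those 4 gave differences of -0.08, 0.17, 0.41 and 0.50, none called, so the value for POL2 is uncertain. ORC5 is the neighbour of POL2 in the RefSeq gene order and was low on the same arrays, as its values above show.

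PCNA (POL30), the clamp that holds polymerases on DNA, had 188, 163 and 188 in K4,79R, against 186, 186 and 231 in wild type, a difference of -0.15 ± 0.13. It is opened and loaded by the 5 RFC subunits. RFC1, the large subunit, had 39.5, 104 and 101 in K4,79R, against 93.3, 78.2 and 78.4 in wild type, which is the widest gap of array 1 among the members at -1.30. Gaps of -1.03, -0.71 and -0.63 were found for RFC5, RFC4 and RFC2, while RFC3 had 0.08. RFC5 read 28.5, 68.6 and 56.0 in K4,79R, against 57.5, 58.8 and 46.2 in wild type, and its neighbour in the gene order, POL30, did not share the low array 1 value.

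With all arrays 5 of these 6 genes had negative differences and RFC2 a positive one, 0.20 ± 0.20, from 39.7, 65.9 and 61.0 in K4,79R against 50.8, 49.5 and 41.1 in wild type. Without array 1 RFC1, RFC4 and RFC5 were positive at 0.29, 0.11 and 0.19, and none of the 6 was called either way. RFC3 was lower on every K4,79R array, with 125, 120 and 115 against 134, 136 and 125 in wild type. That separation was small, at -0.13 ± 0.11 on the log2 scale (limma adjusted p = 0.526).

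RPA coats single-stranded DNA at the fork. RFA2, the middle subunit, had signals of 295, 336 and 313 in K4,79R, against 245, 277 and 250 in wild type, without overlap. The log2 difference of 0.29 ± 0.11 had a limma adjusted p of 0.169 with all arrays, and 0.33 with an adjusted p of 0.0477 without K4,79R array 1. RFA1, the large subunit, had 170, 244 and 216 in K4,79R, against 170, 170 and 186 in wild type. Array 1 lay just under the wild-type values, and the difference of 0.24 ± 0.15 (limma adjusted p = 0.377) was called only without that array, at 0.38 with an adjusted p of 0.0336. RFA3, the small subunit, had 203, 332 and 349 in K4,79R, against 266, 326 and 263 in wild type. Its difference was 0.02, with the sign turned by each of the 3 other scalings of the arrays.

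**Figure D5:**
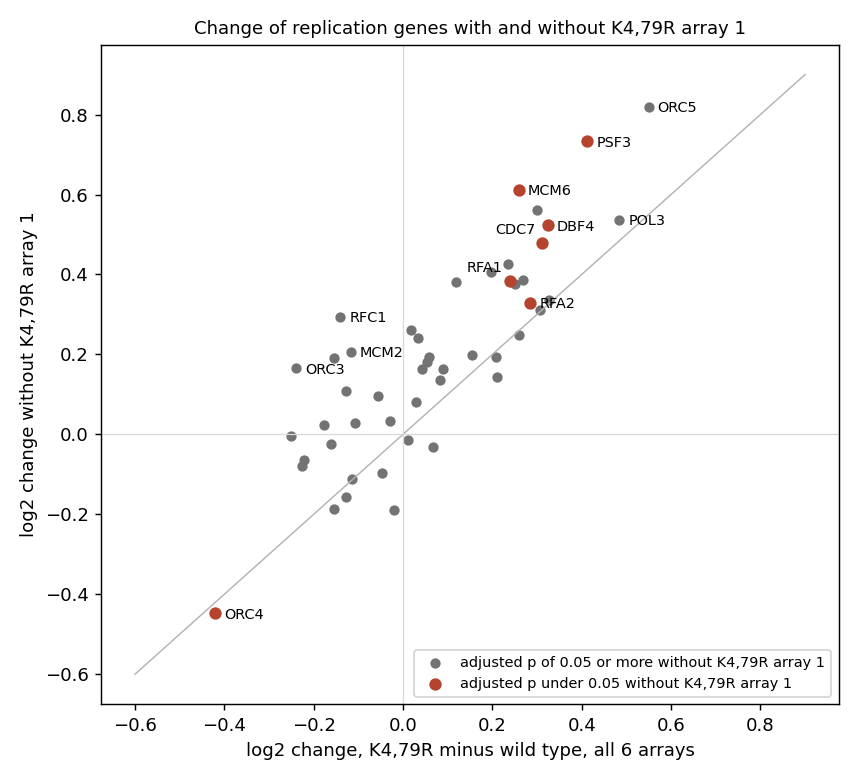
Log2 difference of the 49 tested genes with all 6 arrays (x axis) and without K4,79R array 1 (y axis); the line marks equal values and red points the 7 genes called without that array. Of these, 6 are positive, from RFA2 at 0.33 to PSF3 at 0.73, and ORC4 is negative at -0.45.

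The enzymes that finish Okazaki fragments varied little between arrays. RAD27, the flap endonuclease, had 113, 115 and 112 in K4,79R, against 121, 130 and 118 in wild type: lower on each array but by only -0.11 ± 0.11 (limma adjusted p = 0.572). CDC9, the DNA ligase, averaged 142 ± 12.1 in K4,79R and 141 ± 11.5 in wild type, and DNA2, a nuclease-helicase that trims long flaps, 48.5 ± 3.95 and 47.6 ± 5.93. The 95% intervals of the 3 genes lay between -0.36 and 0.38, and the signs of CDC9 and DNA2 turned with each of the other scalings.

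Fork protection genes were not called either. MRC1, which carries the checkpoint signal at the fork, was dim and variable with 7.65, 19.9 and 12.4 in K4,79R, against 8.40, 8.80 and 11.6 in wild type, a difference of 0.30 ± 0.26. TOF1, its partner in fork pausing, averaged 59.1 ± 9.59 in K4,79R and 56.8 ± 2.33 in wild type. CTF4, the trimer that links helicase and polymerase alpha, averaged 72.1 ± 11.5 in K4,79R and 68.8 ± 2.77 in wild type. The sign turned negative for CTF4 with the arrays set to a common median and for TOF1 with each of the other scalings.

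Over the 49 genes, the arrays of the groups did not overlap for 8, 5 higher (MCM4, POL3, POL31, DPB2 and RFA2) and 3 lower in K4,79R (ORC4, RFC3 and RAD27). That is 16.3%, against 28.8% of all tested genes. With K4,79R array 1 left aside, 24 members (48.98%) had both other K4,79R arrays above all wild-type arrays and 4 (8.16%) had both below, against 38.1% and 15.7% of all tested genes.

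Among other genes of the pathway 1 of 24 was called with all arrays, against 4.23% of all tested genes. Of 24 tested replication factors outside the membership, RNH201, the catalytic subunit of RNase H2 that removes ribonucleotides from DNA, was lower with 78.5, 80.8 and 63.5 in K4,79R against 110, 116 and 130 in wild type. Its log2 difference was -0.65 ± 0.14 (limma adjusted p = 0.0446). The call was lost without the intensity trend and on leaving out any array except K4,79R array 1, with adjusted p up to 0.181. The fits without an array other than K4,79R array 1 called only 22 to 65 of all 5385 tested genes, against 228 with all arrays. Over all alternatives the difference of RNH201 lay between -0.75 and -0.55. RNH203, another subunit of the same enzyme, lay at 0.54 ± 0.13 with an adjusted p of 0.0561, so the subunits had opposite signs. It was called without K4,79R array 1, at 0.46 with an adjusted p of 0.0265. In that fit 4 of the 24 genes were called higher and 1 lower, against 16.0% and 4.83% of all tested genes. The 24 genes had a median of 0.01, with 12 positive and 12 negative differences.

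Genes outside the replication machinery that were listed as transcribed at the G1 to S transition gave 1 call of 18 with all arrays. The share over all tested genes was 4.23%. Of 18 tested, PCL1, a G1 cyclin that partners the kinase Pho85, was higher with 124, 123 and 118 in K4,79R against 75.5, 82.2 and 69.9 in wild type (log2 0.66 ± 0.12, limma adjusted p = 0.0251). That call too was lost without any array other than K4,79R array 1, with adjusted p up to 0.125, and with the arrays set to a common median. Over all alternatives the difference of PCL1 lay between 0.56 and 0.72. The median of the 18 was 0.21, with 14 positive and 4 negative, against a median of 0.04 and 54.9% positive over all tested genes. CDC21, the thymidylate synthase gene, was read on a probe set with a suffix grouped here as marking shared probes. It stood at 0.47 ± 0.12 without a call (limma adjusted p = 0.0799), and the large ribonucleotide reductase subunit gene RNR1 at -0.17 ± 0.14. Without K4,79R array 1 both were called, CDC21 higher at 0.45 with an adjusted p of 0.0290 and RNR1 lower at -0.32 with an adjusted p of 0.0473. In that fit 3 of the 18 genes were called higher and 1 lower, against 16.0% and 4.83% of all tested genes.

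With all arrays no regulator or stage marker was called. Among 8 regulators of G1 to S transcription the largest difference was that of MBP1, the DNA-binding subunit of MBF, at 0.33 ± 0.28. It read 20.5, 48.4 and 42.9 in K4,79R against 27.7, 27.8 and 26.3 in wild type and was called without K4,79R array 1, at 0.67 with an adjusted p of 0.0125. Its partner SWI6 was called there as well, at 0.47 with an adjusted p of 0.0347. That fit called 16.0% of all tested genes higher. With all arrays the 8 regulators had a median of 0.08 and 7 positive differences, where 54.9% of all tested genes were positive. The negative one was CLN3 at -0.32 ± 0.12 (limma adjusted p = 0.171). Of 10 S-phase checkpoint genes the largest was RFX1, the repressor of ribonucleotide reductase genes, at 0.40 ± 0.21. RFX1 was called without K4,79R array 1 at 0.62 with an adjusted p of 0.0212. TEL1 lay at -0.39 ± 0.29, and the 10 genes had a median of -0.11, with 4 positive and 6 negative differences. Of 11 genes expressed in M and early G1 the largest was SWI5, a transcription factor of mitotic exit, at 0.60 ± 0.23. SWI5 was called without K4,79R array 1 at 0.79 with an adjusted p of 0.0316. These 11 genes had a median of 0.01, with 6 positive and 5 negative differences. Of 8 histone genes transcribed in S phase, the 2 tested, HTB1 and HTB2, stood at -0.10 and 0.27.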

How the data were processed

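Expression was measured on 6 one-colour Affymetrix arrays, 3 per group, from about 20 micrograms of total RNA each, per the labels' protocols. The deposited values are array intensity per probe set on a linear scale; per the submitters' processing notes they are MAS5 signals (version not given). All values of each K4,79R array are whole multiples (tolerance 0.001) of 0.1 of a constant, 0.922, 1.09 and 1.11 for arrays 1, 2 and 3. The sources used here do not state the basis of these constants. No scanner file, detection call or genome build was used.

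Of 9335 probe sets, 60 controls were left out; of the other 9275, 6504 had 1 gene, 328 several and 2443 none, and all 6504 matched the RefSeq table of assembly R64. The 2%-trimmed means of the arrays differed by 1.1995-fold, within the limit of 1.2, so values were used as deposited. An offset of 3.605 (0.1 of the median signal) was added before log2, which understates differences of dim genes. The dimmest 20% of probe sets were left out, and a gene was read by its brightest probe set, giving 5385 genes. Groups were compared with limma 3.58.1 in R 4.3.3 (lmFit, eBayes with an intensity trend, two-sided, Benjamini-Hochberg over all tested genes); the fit was tested on simulated data. An exact permutation test of 3 against 3 cannot go below 0.1, so none is given.

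Members, lists and tests were chosen with earlier results of these data known. Members named by rule were the 6 largest differences in each direction, the largest of each role and any called. Genes of other lists named by rule were called genes or the largest difference. Further members, some given with array values, were described to account for all 50. RNH203, CDC21, RNR1, SWI6, CLN3, TEL1, HTB1 and HTB2 were named after their values were seen. Alternatives were other scalings, offsets, filters and probe set rules, no trend, the replicate number as a block, and leaving out each array.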

Additional observations from a re-analysis of the deposited data

How the results depend on the processing

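No replication gene was called under any alternative that kept all 6 arrays (smallest limma adjusted p 0.0807, ORC4 with a common median). Nor was any called on leaving out an array other than K4,79R array 1. Those fits called only 22 to 65 of all 5385 tested genes, so the lack of calls among the members says little there. On leaving out each array in turn the members called higher ranged from 0 to 6, those called lower from 0 to 1, and their median log2 difference from -0.01 to 0.19. Without K4,79R array 1, ORC3 stood at 0.17 and PSF1 at 0.022, against -0.24 and -0.18 with all arrays, and over all left-out arrays they ranged from -0.47 to 0.17 and from -0.30 to 0.022; the cause was not tested. Members turned sign in 10 cases with a common median, 7 with quantile normalization and 5 with the constants divided out, all among differences of at most 0.09 in size. The median of all tested genes moved from 0.04 to -0.06, -0.03 and -0.01 with these scalings, and that of the members to -0.04, -0.01 and 0.00. Calls over all genes, 228 as deposited (150 higher, 78 lower in K4,79R), were 358 with a common median (156 and 202), 369 with quantile normalization (181 and 188), 346 with the constants divided out (182 and 164), and 22 to 1123 on leaving out each array. With the replicate number as a block 24 genes and no member were called, RNH201 and PCL1 not among them (adjusted p 0.138 and 0.109); the pairing was not borne out, since arrays of the same number correlated in their deviations at -0.15, 0.07 and -0.02, and not every array correlated best with its own number. The members named by rule and the called genes of other lists, 21 genes, gave 334 values under alternatives. Of these, 313 kept their sign and side of the threshold and 5 gained a call. A further 14 lost one (RNH201 and PCL1, each called under 9 of 16 alternatives) and 2 turned sign. The 21 leave out genes called without K4,79R array 1, such as the members MCM6 and RFA1 and, of other lists, MBP1, RFX1 and SWI5. Signal near background limits POL32, ORC6, MCM10, SLD2 and MRC1, and scaling limits every difference under 0.1.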
